A study of Homo sapiens with 66 samples.

Results

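The first sampled step of motor neuron differentiation, hMN at day 6 (hMN-D6) against the spinal cord neural progenitor cells (hSCNPCs) from which it starts, was examined across all genes. The 3 libraries labelled hMN-D6 and the 3 labelled hSCNPC-P10 (passage 10) were chosen by their labels, 6 of the 66 bulk RNA-seq libraries of the series. No library is labelled day 0 of hMN, and the study's figures use the P10 libraries for it. Both groups are wild-type cells of the H9 line, an established human embryonic stem cell line. hMN-D6 cells had spent 6 days in motor neuron medium, which holds purmorphamine (an agonist of the hedgehog receptor Smoothened), Compound E (an inhibitor of gamma-secretase, the protease that releases the active part of Notch), BDNF, GDNF and NT-3. hSCNPC-P10 cells were dividing in N2B27 medium with SB431542 (an inhibitor of activin and TGF-beta receptors), CHIR99021 (an inhibitor of GSK3, which turns Wnt signalling on) and a lower dose of purmorphamine. The step to hMN-D6 therefore withdrew 2 inhibitors and added a Notch pathway inhibitor and neurotrophic factors at the same time, and the effects of these changes cannot be told apart here. All cells are of 1 cell line, and nothing in the labels ties a replicate to its own culture. The p-values therefore measure only the spread between libraries within groups. That spread was taken over the 18 hMN libraries of all days and the 3 hSCNPC-P10 libraries, not over the 6 alone. The 2 groups were deposited in separate count tables, so a difference between sequencing runs, if there was one, cannot be told apart from the difference between groups.

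In the ventral spinal cord, graded hedgehog signalling divides the progenitors into domains with their own transcription factors, and each domain gives its own class of neuron: V0, V1, V2 and V3 interneurons and, from the OLIG2 domain, motor neurons. Notch signalling keeps progenitors dividing through HES and HEY repressors, and its loss lets proneural factors start neuronal differentiation. Newborn motor neurons carry MNX1, ISL1 and LHX3 and later make acetylcholine with CHAT, package it with SLC18A3 and take choline back up with SLC5A7. The rostrocaudal level of a spinal cell is marked by HOX genes, whose paralogues are switched on in the order in which they lie along each cluster.

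The 3 hMN-D6 libraries held 16730486 to 21970272 counts and the 3 hSCNPC-P10 libraries 15514546 to 24586308. Libraries of 1 group lay close together, at a root mean square difference of 0.123 to 0.167 on the log2 scale within hMN-D6 and 0.123 to 0.161 within hSCNPC-P10, against 1.33 to 1.36 between the groups. Mitochondrially encoded genes took 3.45% to 3.71% of the counts in hMN-D6 and 4.55% to 4.66% in hSCNPC-P10. Values below are CPM, counts scaled to a common library size with TMM factors, and log2 fold changes are hMN-D6 over hSCNPC-P10 with their standard error (SE). A gene is said to rise or fall only where it passed edgeR's quasi-likelihood test at a Benjamini-Hochberg adjusted p under 0.05 over all genes tested.

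Of 21163 genes tested, 8157 were higher in hMN-D6, which is 38.5% of all, and 7759 were lower, which is 36.7%. Together 75.2% of genes were called, so a call by itself says little, and 4199 of the called genes moved by less than 1.5-fold. Changes of at least 2-fold were found for 4710 genes that rose (22.3%) and 3543 that fell (16.7%), and changes of at least 8-fold for 806 and 634 genes. The median log2 fold change of all genes was 0.079. Without TMM factors it was 0.304, a shift of 0.225, and 9973 genes were then higher and 6280 lower, so that higher genes made up 61.4% of the calls instead of 51.3%. Upper quartile scaling gave a shift of 0.213 and 60.9%.

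**Figure D1:**
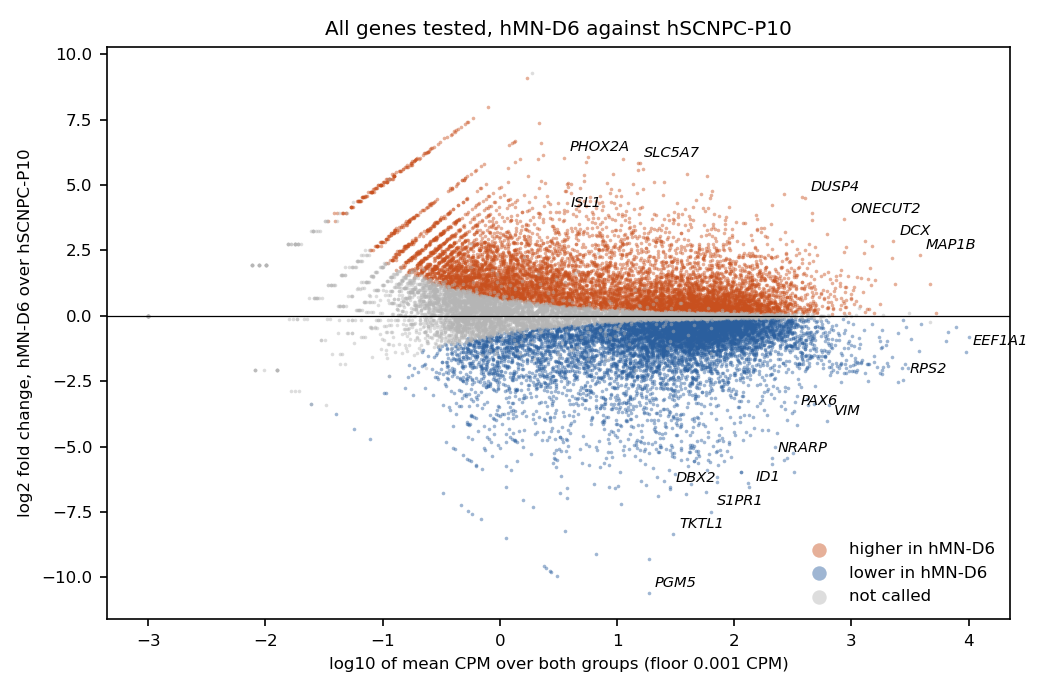
Log2 fold change of each gene tested (vertical axis, hMN-D6 over hSCNPC-P10) against log10 of its mean CPM over both groups (horizontal axis). Points are coloured by the call of edgeR's test: 8157 genes were higher, 7759 lower and 5247 not called. PGM5, named at the foot of the plot, lies furthest below 0 among the labelled genes.

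The genes that gained most CPM were those of the neuronal cytoskeleton. MAP1B, which bundles microtubules in growing axons, had 6068, 6552 and 6492 CPM in hMN-D6, against 1279.6, 1253 and 1301 CPM in hSCNPC-P10. DCX, the microtubule protein of newborn neurons, had 3707, 4103 and 4196 CPM in hMN-D6, against 556, 559 and 548 CPM in hSCNPC-P10. For both genes the lowest hMN-D6 library was several times the highest hSCNPC-P10 library. TUBA1A, NEFL, NEFM, STMN2 and the transcription factors SOX11 and ONECUT2 were also among the 10 with the largest gain, together with GNAS, which encodes the stimulatory G protein subunit, and CRABP1, a binder of retinoic acid. CRABP1 reached 3650.3 ± 429 CPM (SD, n = 3) in hMN-D6, against 792 ± 39 in hSCNPC-P10. The 10 genes that lost most CPM were EEF1A1, EEF2, RPS2, RPL13A, RPL3, RPLP0, HNRNPA1, MT-CO1, MT-CO3 and MT-RNR2, which serve protein synthesis, RNA binding and the mitochondrial respiratory chain and ribosome.

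By fold, the 15 genes that rose most among those with at least 5 CPM in every hMN-D6 library were POU4F2, PHOX2A, CNTNAP4, CD36, DNAJC22, SLC5A7, ETV4, CNTN5, GRM4, CNGB1, SERTM2, PCSK1, UTS2B, GABRR1 and CBLN2. They include 2 homeodomain factors (POU4F2 and PHOX2A), cell adhesion molecules of the contactin system (CNTN5 and CNTNAP4), the synaptic organiser CBLN2, the metabotropic glutamate receptor GRM4 and the prohormone convertase PCSK1. PCSK1, which cuts neuropeptide precursors, had 111, 115 and 116 CPM in hMN-D6, against 3.26, 3.08 and 1.93 CPM in hSCNPC-P10 (log2 fold change 5.36, SE 0.08). POU4F2 had 11.3, 11.4 and 10.6 CPM in hMN-D6, against 0, 0.3 and 0.234 CPM in hSCNPC-P10, and was close to the limit of detection in the progenitors. The 15 that fell most were PGM5, OR51E2, HES5, FAP, TKTL1, RLBP1, S1PR1, FGF19, CXCL3, CEBPD, TRIM48, GSX1, FZD10, DBX2 and NXPH2. Several of these had next to no counts in hMN-D6, so their folds are given from the summed counts. OR51E2 had 0 counts in hMN-D6, against 320 in hSCNPC-P10, which makes it at least 119-fold lower at a floor of 3 counts over the group, with library sizes scaled by the TMM factors. PGM5 had 1 count in hMN-D6, against 1883 in hSCNPC-P10, a ratio of 2100.0 with an exact 95% interval of 377 to 83200 for counting error only. S1PR1, a receptor for the lipid sphingosine 1-phosphate, was measured in both groups, with 0.671, 0.652 and 0.747 CPM in hMN-D6, against 132, 119 and 123 CPM in hSCNPC-P10.

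Genes of the dividing progenitor fell almost without exception. All 25 mitosis genes and all 25 DNA replication genes listed were lower in hMN-D6 (beside 36.7% of all genes), with median log2 fold changes of -5.23 and -3.06. The proliferation antigen MKI67 had 9.76, 12.4 and 11.6 CPM in hMN-D6, against 531, 487 and 533 CPM in hSCNPC-P10. CDK1, the kinase that drives entry into mitosis, had 1.34, 1.96 and 1.07 CPM in hMN-D6, against 78, 86.9 and 74.8 CPM in hSCNPC-P10. No hMN-D6 library came within 20-fold of a progenitor library for either gene. The smallest change among the 50 genes was that of POLE, a replicative DNA polymerase, at 161 ± 7.31 CPM in hMN-D6 and 218 ± 13.4 in hSCNPC-P10 (SD, n = 3 each; log2 fold change -0.45). In bulk RNA, fewer cells of a type and less RNA per cell cannot be told apart, so these values do not say how many hMN-D6 cells were still dividing.

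The G1 regulators did not move as one group. Of 17 cyclin D and CDK inhibitor genes, 5 rose (29.4%, beside 38.5% of all genes) and 10 fell (58.8%, beside 36.7%). CCND1 (cyclin D1) rose, with 539, 589.9 and 598 CPM in hMN-D6, against 359, 333 and 354 CPM in hSCNPC-P10, while CCND2 fell by 0.50 on the log2 scale. CDKN2D, the INK4-type inhibitor p19, rose to 57 ± 0.827 CPM in hMN-D6, against 14.3 ± 1.67 in hSCNPC-P10 (SD, n = 3 each). Its relative CDKN2C fell by 5.62 on the log2 scale, and CDKN1A (p21) fell by 1.51.

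Of 24 neural progenitor genes tested, 22 fell (91.7%, beside 36.7% of all genes) and 1 rose (4.17%, beside 38.5%), with a median log2 fold change of -1.98. PAX6, a homeodomain factor of spinal progenitors, had 45.9, 51.9 and 47.2 CPM in hMN-D6, against 626, 587 and 599 CPM in hSCNPC-P10. SOX2, which maintains the neural stem cell state, had 199, 195 and 189.9 CPM in hMN-D6, against 691, 648 and 676 CPM in hSCNPC-P10, so it stayed well above detection at day 6. SOX1 and the intermediate filament gene NES fell by 2.18 and 1.12 on the log2 scale. VIM (vimentin) fell by 4.02 and HMGA2, a chromatin protein of fetal stem cells, by 4.30. Checked against its label, hSCNPC-P10 thus held the neural progenitor genes SOX1, SOX2, PAX6 and NES and the proliferation gene MKI67.

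Most genes of the motor neuron list were higher in hMN-D6, and the defining factors MNX1, ISL1, ISL2 and LHX3 rose but lay at 12.4 CPM or less in every hMN-D6 library. Of 19 motor neuron genes tested, 14 were higher in hMN-D6 (73.7%, beside 38.5% of all genes), 3 lower and 2 not called, with a median log2 fold change of 1.41. ISL1 (chromosome 5, 51383448 to 51394730 on hg38), the LIM homeodomain factor needed for motor neurons to form, had 5.98, 7.17 and 6.88 CPM in hMN-D6, against 0.444, 0.075 and 0.703 CPM in hSCNPC-P10. MNX1 (HB9), which holds the motor neuron identity against that of V2 interneurons, had 3.72, 3.77 and 4.54 CPM in hMN-D6, against 1.09, 1.73 and 2.05 CPM in hSCNPC-P10. LHX3, a partner of ISL1 that also serves V2a interneurons, had 12.4, 12.1 and 12.3 CPM in hMN-D6, against 4.84, 4.13 and 4.8 CPM in hSCNPC-P10. All hMN-D6 libraries lay above all hSCNPC-P10 libraries for 8214 of the 21163 genes tested. The same holds for each of these 3 genes, whose spread within a group is small beside the difference. Their log2 fold changes were 3.93 (SE 0.21), 1.33 (SE 0.19) and 1.41 (SE 0.14), with adjusted p of 2.01e-22, 2.75e-08 and 2.11e-12 by edgeR's test with Benjamini-Hochberg adjustment. The gain of MNX1 depends on the passage it is set against: with hSCNPC-P20 in place of P10 the log2 fold change was 0.12, with an edgeR adjusted p (Benjamini-Hochberg) of 0.488. ISL2 was 3.52 ± 0.338 CPM in hMN-D6 and 1.59 ± 0.574 in hSCNPC-P10 (SD, n = 3 each).

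OLIG2, the factor of the motor neuron progenitor domain, was low in both groups, with 3.42, 3.4 and 4.96 CPM in hMN-D6, against 1.93, 1.95 and 1.99 CPM in hSCNPC-P10. All hMN-D6 libraries lay above all hSCNPC-P10 libraries, as they did for 8214 of the 21163 genes tested. The log2 fold change was 1.00 (SE 0.36), but the call depended on single libraries: without the third hMN-D6 library it was 0.80 with an edgeR adjusted p (Benjamini-Hochberg) of 0.074, and without the first hSCNPC-P10 library 0.99 with an adjusted p of 0.0516. Against hSCNPC-P5 the log2 fold change of OLIG2 was 2.99.

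Among the other genes on the motor neuron list, the ONECUT factors, which act in newborn motor neurons and several classes of interneuron, rose together. ONECUT2 had 1474, 1682 and 1647 CPM in hMN-D6, against 128, 126 and 119.8 CPM in hSCNPC-P10. ONECUT1 and ONECUT3 rose by 3.21 and 3.86 on the log2 scale. LHX4, a LIM factor shared by motor neurons and V2 interneurons, was 139.6 ± 2.5 CPM in hMN-D6 and 24.4 ± 1.1 in hSCNPC-P10 (SD, n = 3 each). ESRRG, a nuclear receptor of gamma motor neurons, was 124 ± 3.48 CPM in hMN-D6 and 12.5 ± 0.393 in hSCNPC-P10. NR2F1 (COUP-TFI), MECOM and ETV1 fell by 1.5, 2.27 and 0.87 on the log2 scale, against the direction of the list. PHOX2A, a homeodomain factor of cranial motor and noradrenergic neurons, had 6.22, 8.8 and 5.76 CPM in hMN-D6, against 0.0494, 0.075 and 0.176 CPM in hSCNPC-P10.

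Most genes of the cholinergic synapse rose, with the transporters at a higher level than the enzyme. Of 17 cholinergic genes tested, 11 rose (64.7%, beside 38.5% of all genes) and 3 fell (17.6%, beside 36.7%). Their median log2 fold change was 1.16. SLC5A7, the high-affinity choline transporter, had 29, 31.3 and 28.4 CPM in hMN-D6, against 0.543, 0.6 and 0.41 CPM in hSCNPC-P10. SLC18A3, the vesicular acetylcholine transporter, had 22.8, 21.8 and 22.4 CPM in hMN-D6, against 1.43, 1.2 and 1.46 CPM in hSCNPC-P10. CHAT, which makes acetylcholine, had 1.59, 1.44 and 1.97 CPM in hMN-D6, against 0.0494, 0.225 and 0.234 CPM in hSCNPC-P10. All 3 rose by over 3 on the log2 scale (5.83, 4.01 and 3.34), but the level of CHAT remained at 1.02 TPM (a unit that allows for gene length), against 37.1 TPM for SLC18A3 and 23 TPM for SLC5A7, all in hMN-D6. PRPH (peripherin) rose by 3.24 on the log2 scale to 3.21 ± 0.528 CPM, and 71.5% of its exon bases are shared with another annotated gene, so its count is uncertain.

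SOX14, a factor of V2 neurons, had 55.5, 57.2 and 54.7 CPM in hMN-D6, against 5.04, 4.28 and 4.86 CPM in hSCNPC-P10. It rose more than 10-fold, by 3.55 on the log2 scale. On the scale of TPM, which allows genes to be set side by side, SOX14 stood at 111 in hMN-D6, against 9.52 for ISL1, 3.82 for MNX1, 6.51 for ISL2 and 12.8 for LHX3 in the same libraries. By their defining markers, the hMN-D6 libraries thus held motor neuron transcripts, but at a lower level than SOX14, and they are called hMN-D6 here after their label, with no cell type read into it.

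The factors of V2b interneurons and of the progenitors they come from went the other way. FOXN4, which directs V2 progenitors, had 1.59, 2.65 and 2.51 CPM in hMN-D6, against 23.4, 20.8 and 23.2 CPM in hSCNPC-P10. VSX1 fell by 3.82, TAL1 by 3.79 and GATA2 by 2.73 on the log2 scale, all at under 9 CPM in both groups. GATA3 fell by 3.00 (SE 0.92), but at under 2 CPM in every library. Without the first hSCNPC-P10 library its log2 fold change was -2.42, with an edgeR adjusted p (Benjamini-Hochberg) of 0.0576. Over the V0 to V3 list as a whole, 4 of 15 genes rose and 9 fell against P10 (median -0.89), whereas 7 rose and 4 fell against hSCNPC-P20. GATA2 and GATA3 are among the genes whose sign turned there, and GATA3 was no longer called against hSCNPC-P5 either (log2 fold change -1.58).

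Most factors of dorsal interneurons rose as well. Of 10 dorsal interneuron factors tested, 7 rose and 1 fell. LBX1, the factor of the dorsal dI4 to dI6 classes, had 107, 104 and 95.6 CPM in hMN-D6, against 16.9, 17.7 and 15.6 CPM in hSCNPC-P10. LMX1B, which marks dI5 neurons, was 9.998 ± 0.416 CPM in hMN-D6 and 1.11 ± 0.108 in hSCNPC-P10 (SD, n = 3 each). PAX2, from the V0 to V3 list and found in V0, V1 and several dorsal classes, was 31.5 ± 1.05 CPM in hMN-D6 and 15.2 ± 0.678 in hSCNPC-P10. Here too the passage matters: PAX2 was lower in hMN-D6 than in hSCNPC-P5 (log2 fold change -0.86), LMX1B was lower than in hSCNPC-P20 (-0.66), and of the 10 factors 4 rose and 3 fell against P5, and 3 rose and 5 fell against P20.

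**Figure D2:**
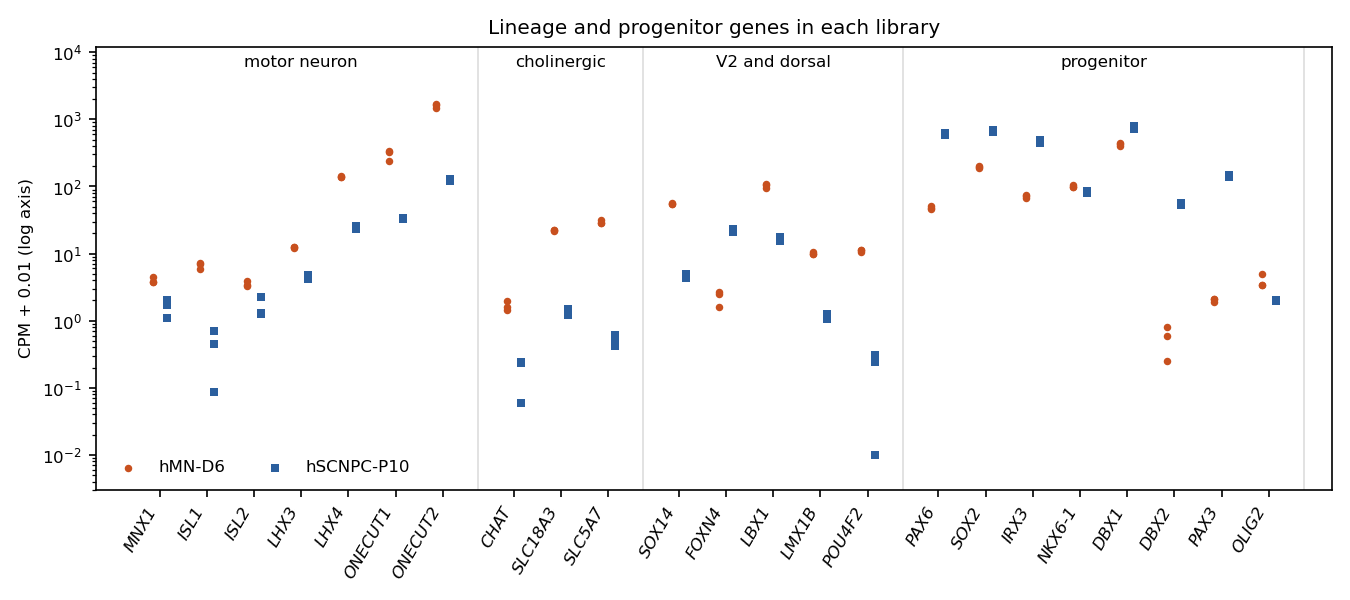
CPM of 23 lineage and progenitor genes in each of the 6 libraries on a log axis (a small constant was added so that 0 can be drawn), hMN-D6 as circles to the left and hSCNPC-P10 as squares to the right of each gene. The motor neuron factors MNX1, ISL1, ISL2 and LHX3 lie at 12.4 CPM or less in hMN-D6 and above their hSCNPC-P10 values, as do SOX14 and LBX1, while PAX6, IRX3, DBX2 and PAX3 lie far lower in hMN-D6 than in hSCNPC-P10.

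Domain factors of the progenitors did not change alike. Among dorsal and intermediate genes, PAX3 had 2.07, 1.86 and 2.08 CPM in hMN-D6, against 149, 138 and 139 CPM in hSCNPC-P10, and DBX2 had 0.244, 0.791 and 0.587 CPM in hMN-D6, against 56.2, 57.3 and 53.4 CPM in hSCNPC-P10. PAX7 fell by 5.21 on the log2 scale and IRX3, which borders the motor neuron domain dorsally, by 2.71. GSX1 had 3 counts over the hMN-D6 libraries, against 333 over those of hSCNPC-P10, a ratio of 124 (exact 95% interval 42.1 to 604, counting error only). DBX1, the factor of the p0 domain, from which V0 interneurons come, kept a high level, with 407, 452 and 424 CPM in hMN-D6, against 807, 717 and 795 CPM in hSCNPC-P10. DBX1 fell against P10 by 0.85 on the log2 scale, but it was higher in hMN-D6 than in hSCNPC-P5 (log2 fold change 0.18) and hSCNPC-P20 (4.05), so its direction is set by the passage. NKX6-1, the broad ventral factor of the V2, motor neuron and V3 domains, was nearly level at 101 ± 4.96 CPM in hMN-D6 and 82 ± 3.87 in hSCNPC-P10 (SD, n = 3 each; log2 fold change 0.30). NKX2-2, which marks the p3 domain, was 1.1 ± 0.161 CPM in hMN-D6 and 5.55 ± 0.731 in hSCNPC-P10, lower against P10 but higher against P5 (3.59) and not called against P20 (-0.24). Floor plate genes appeared at a low level: SHH, the hedgehog ligand, was 4.29 ± 0.407 CPM in hMN-D6 and 0.366 ± 0.0779 in hSCNPC-P10, and FOXA2 had 149 counts in hMN-D6, against 1 count in hSCNPC-P10 (ratio 133, exact 95% interval 23.6 to 5300). The rise of SHH was lost against hSCNPC-P20, at a log2 fold change of 0.31 with an edgeR adjusted p (Benjamini-Hochberg) of 0.268.

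The proneural factors split. Of 31 proneural and early neuronal factors tested, 20 rose (64.5%, beside 38.5% of all genes) and 7 fell (22.6%, beside 36.7%). Their median log2 fold change was 1.19. NEUROG1 had 8.66, 9.87 and 7.58 CPM in hMN-D6, against 87.5, 89.3 and 90.2 CPM in hSCNPC-P10, and NEUROG2, the proneural factor of the motor neuron domain, fell by 0.60 on the log2 scale. Both neurogenins were higher in hMN-D6 than in hSCNPC-P20 (0.96 for NEUROG1 and 2.65 for NEUROG2). Later factors rose, among them SOX11 (1.81) and the RNA-binding proteins ELAVL3 (1.63) and ELAVL4 (2.22).

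Most Notch effector genes were lower in hMN-D6. Of 8 Notch effector genes tested, 6 fell (75.0%, beside 36.7% of all genes) and 1 rose (12.5%, beside 38.5%), with a median log2 fold change of -2.29. NRARP, which Notch induces and which feeds back on it, had 8.66, 10.2 and 9.07 CPM in hMN-D6, against 409, 397 and 419 CPM in hSCNPC-P10, a log2 fold change of -5.45 (SE 0.07). HEYL, a repressor induced by Notch, had 0.122, 0.512 and 0.32 CPM in hMN-D6, against 21.9, 18.7 and 22.6 CPM in hSCNPC-P10. HES4 was 72.4 ± 9.29 CPM in hMN-D6 and 375 ± 17 in hSCNPC-P10, and HES1 was 3.41 ± 1.07 and 15.7 ± 1.48 (SD, n = 3 each). HES6, which is also on the list of proneural and early neuronal factors, fell by 1.73 on the log2 scale. HES7, which drives the somite clock in mouse, rose by 2.27 on the log2 scale at under 3 CPM. HES5 had 0.061, 0 and 0.107 CPM in hMN-D6, against 19.2, 76.7 and 16.3 CPM in hSCNPC-P10, and the second progenitor library lies far above the other two. Of the words of 31 bases in its transcript, 95.5% also lie on an alternate contig of hg38, so reads of HES5 could have been placed in either copy and its level is uncertain.

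The promoters of HES1, HES4, HES5 and HEYL, all lower in hMN-D6, are shown because they hold the letters GTGGGAA, the core of the motif of RBPJ, the DNA-binding protein through which Notch acts. Each window runs from 250 bases before to 50 after the RefSeq start on GRCh38.p14, given 5′ to 3′ on the gene's strand, with matches on either strand in capitals.
HES1 (chr3:194135898-194136197, plus strand): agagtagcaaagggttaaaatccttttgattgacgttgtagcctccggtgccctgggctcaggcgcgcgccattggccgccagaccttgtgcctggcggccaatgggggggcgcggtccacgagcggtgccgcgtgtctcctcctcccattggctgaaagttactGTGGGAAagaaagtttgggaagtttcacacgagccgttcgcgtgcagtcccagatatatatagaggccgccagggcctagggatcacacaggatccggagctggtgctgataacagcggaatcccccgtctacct
HES4 (chr1:1000048-1000347, minus strand): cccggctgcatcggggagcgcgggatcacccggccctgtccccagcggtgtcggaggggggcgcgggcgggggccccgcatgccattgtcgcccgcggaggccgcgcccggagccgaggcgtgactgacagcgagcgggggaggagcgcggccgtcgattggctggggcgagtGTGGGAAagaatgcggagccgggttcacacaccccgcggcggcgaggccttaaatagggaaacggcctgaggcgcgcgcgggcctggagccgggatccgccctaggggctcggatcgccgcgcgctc
HES5 (chr1:2530214-2530513, minus strand): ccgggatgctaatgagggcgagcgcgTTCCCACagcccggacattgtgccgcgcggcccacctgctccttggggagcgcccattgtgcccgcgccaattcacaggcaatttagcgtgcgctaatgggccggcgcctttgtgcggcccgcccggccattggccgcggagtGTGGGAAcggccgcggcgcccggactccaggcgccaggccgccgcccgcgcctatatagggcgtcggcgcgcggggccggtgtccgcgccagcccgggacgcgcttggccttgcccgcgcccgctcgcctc
HEYL (chr1:39639594-39639893, minus strand): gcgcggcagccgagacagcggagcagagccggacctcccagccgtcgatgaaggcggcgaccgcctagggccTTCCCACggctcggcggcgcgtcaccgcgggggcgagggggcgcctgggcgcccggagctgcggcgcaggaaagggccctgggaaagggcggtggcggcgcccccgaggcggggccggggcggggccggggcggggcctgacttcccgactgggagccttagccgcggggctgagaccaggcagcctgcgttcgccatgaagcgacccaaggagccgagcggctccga
The match starts 85, 77 and 81 bases before the start site in HES1, HES4 and HES5, in each case on the gene's own strand, and 178 bases before it on the opposite strand in HEYL. HES5 has another match on the opposite strand, 224 bases before the start. Of the 7 HES, HEYL and NRARP genes searched, 4 have a match, and the windows of HES6, HES7 and NRARP do not hold these letters. Among all 35116 promoter windows of the same length, 6.25% hold them on either strand. A match is a description of the sequence and not evidence of binding.

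The receptors of the pathway fell, and its ligands differed among themselves. NOTCH1 had 40.8, 45.3 and 46.6 CPM in hMN-D6, against 615, 519 and 597 CPM in hSCNPC-P10, and NOTCH2 (log2 fold change -4.77), NOTCH3 (-4.18) and LFNG (-4.54), a glycosyltransferase that tunes the receptors, fell too. The ligand JAG1 and the modifier DTX4 fell by 2.23 and 2.71. In contrast, the ligands DLL4 (1.81), JAG2 (1.23) and DLL3 (0.47) rose, as did DTX1 (1.65). DNER, a neuronal transmembrane protein that binds Notch, had 493, 485 and 493 CPM in hMN-D6, against 54.4, 50.7 and 53.3 CPM in hSCNPC-P10. Over the list of ligands, receptors and modifiers, 8 of 18 genes rose and 8 fell (44.4% each, beside 38.5% higher and 36.7% lower over all genes), with a median log2 fold change of -0.02. DLL1 could not be read, since it had 0 counts in hMN-D6 and 1 in hSCNPC-P10, and 92.6% of its words of 31 bases lie on an alternate contig as well.

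Both media contain purmorphamine, and most hedgehog pathway genes were lower in hMN-D6. Of 19 hedgehog pathway genes tested, 12 fell (63.2%, beside 36.7% of all genes) and 4 rose (21.1%, beside 38.5%). Their median log2 fold change was -0.73. GLI1, both a target of the pathway and one of its effectors, had 0.732, 0.745 and 0.32 CPM in hMN-D6, against 58.5, 53.6 and 57.5 CPM in hSCNPC-P10. PTCH1, the receptor that the pathway induces, fell far less, with 305, 345 and 352 CPM in hMN-D6, against 658, 592 and 650.0 CPM in hSCNPC-P10 (log2 fold change -0.92, SE 0.06). The effectors GLI2 and GLI3 fell by 3.44 and 4.82 on the log2 scale, Smoothened (SMO), which purmorphamine acts on, by 2.1, and the co-receptors BOC and GAS1 by 3.45 and 3.45. The third co-receptor, CDON, rose by 0.29, but was lower in hMN-D6 than in hSCNPC-P5 (-0.22) and hSCNPC-P20 (-1.20). DISP2, a relative of the hedgehog ligand exporter DISP1, rose by 2.40.

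Most genes of the Wnt target list were lower in hMN-D6, whose medium had no CHIR99021. Of 18 tested, 13 fell (72.2%, beside 36.7% of all genes) and 2 rose (11.1%, beside 38.5%). Their median log2 fold change was -2.31. The list also holds DNA-binding and secreted members of the pathway, so the count is not one of targets alone. LEF1, a DNA-binding partner of beta-catenin, had 1.1, 1.02 and 1.39 CPM in hMN-D6, against 47.4, 42 and 41.6 CPM in hSCNPC-P10. AXIN2, a feedback inhibitor and a common readout of the pathway, was 35.3 ± 1.4 CPM in hMN-D6 and 88.6 ± 2.48 in hSCNPC-P10 (SD, n = 3 each). SP5 fell by 4.97 on the log2 scale, TCF7L1 by 4.69, TCF7L2 by 3.93, LGR5 by 3.42 and SFRP2 by 2.86. The Wnt receptor gene FZD10, which is not on the list, fell by 6.74. The 2 members that rose, CCND1 (0.72) and MYC (1.04), respond to many other signals.

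Several feedback genes of the ERK pathway rose steeply. DUSP4, a phosphatase of ERK, had 748, 766 and 787 CPM in hMN-D6, against 32.2, 32.3 and 35.9 CPM in hSCNPC-P10, a log2 fold change of 4.52 (SE 0.05). SPRY4, an inhibitor of receptor tyrosine kinase signalling, had 71.5, 70.6 and 74.2 CPM in hMN-D6, against 3.46, 4.35 and 5.15 CPM in hSCNPC-P10. The ETS factor ETV4 had 33.2, 31.7 and 33 CPM in hMN-D6, against 0.741, 0.9 and 0.351 CPM in hSCNPC-P10. For all 3 genes the lowest hMN-D6 library was over 10 times the highest hSCNPC-P10 library. ETV5 (5.06), SPRY1 (4.69), DUSP6 (3.42) and SPRED3 (2.52) moved the same way, but SPRY2 (-0.025, not called), SPRED1 (-0.24) and SPRED2 (0.17), of the same families, did not share the steep rise. FGFR1, FGFR2 and FGFR3 fell by 0.63, 3.78 and 3.31, and the ligand FGF19 fell by 7.18 on the log2 scale. Over the 25 genes of the FGF and ERK list, 12 rose and 7 fell (48.0% and 28.0%, beside 38.5% and 36.7% of all genes; median 0.17). Between alternatives, 11 to 17 of its genes were called higher.

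The receptors for the added neurotrophic factors differed among themselves. NTRK3, the receptor of NT-3, had 78.7, 96.9 and 90.2 CPM in hMN-D6, against 23.4, 26 and 27 CPM in hSCNPC-P10. RET, the signalling receptor of GDNF, had 24.1, 22.2 and 25.2 CPM in hMN-D6, against 2.42, 3 and 3.4 CPM in hSCNPC-P10. NTRK2, the receptor of BDNF, moved the other way, with 51.5, 60.1 and 59.9 CPM in hMN-D6, against 275, 261 and 261 CPM in hSCNPC-P10. NGFR, the p75 receptor shared by the neurotrophins, rose by 2.53 on the log2 scale, and CNTFR, the receptor of ciliary neurotrophic factor, fell by 1.20. The transcripts of the ligands BDNF and NTF3 rose as well, BDNF to 3.8 ± 0.681 CPM in hMN-D6, against 0.552 ± 0.274 in hSCNPC-P10, and NTF3 (NT-3) by 2.04 on the log2 scale. Of the 19 genes of this list, 10 rose (52.6%, beside 38.5% of all genes) and 6 fell (31.6%, beside 36.7%).

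Among genes that respond to BMP and TGF-beta, ID1, an inhibitor of differentiation, fell most, and its relative ID3 fell too. ID1 had 3.05, 2.37 and 3.15 CPM in hMN-D6, against 279.8, 247 and 267 CPM in hSCNPC-P10, and ID3 fell by 3.76 on the log2 scale. The list as a whole did not move one way, with 12 of 24 genes higher and 9 lower (37.5%, beside 36.7% of all genes), at a median of 0.38.

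**Figure D3:**
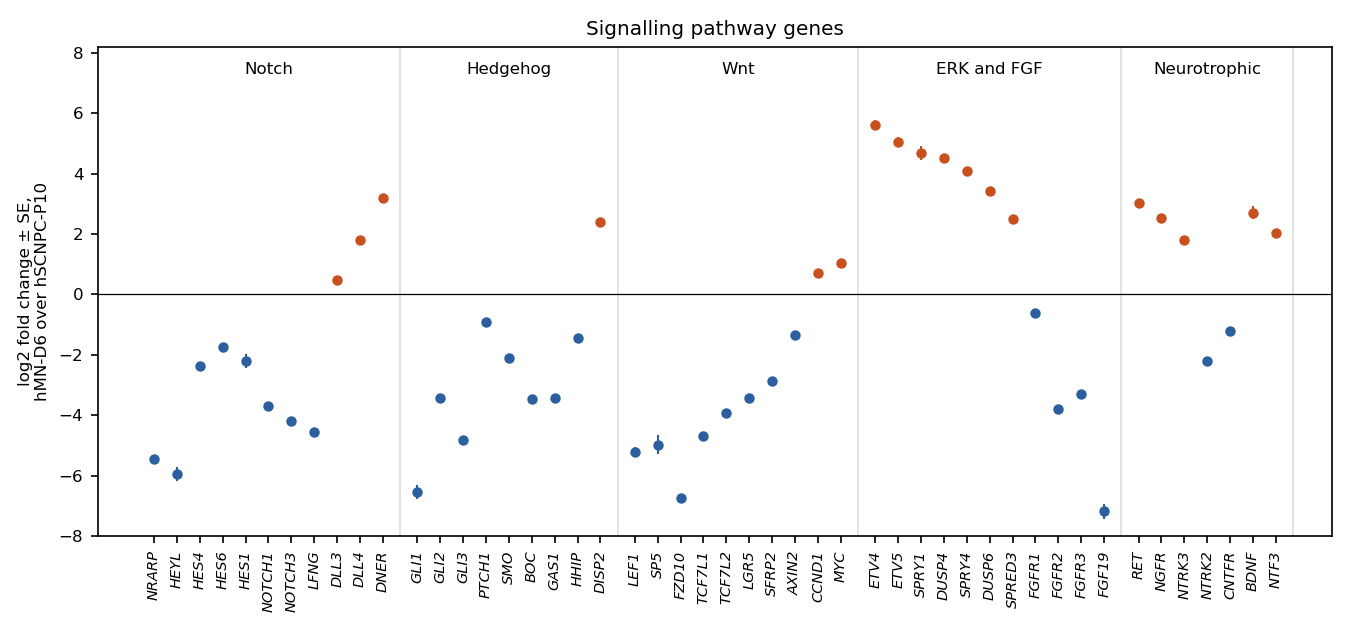
Log2 fold change with its SE (vertical axis, hMN-D6 over hSCNPC-P10) of named genes in 5 signalling pathways. Notch, hedgehog and Wnt effectors lie under 0 (NRARP -5.45, GLI1 -6.54, LEF1 -5.22), and the ERK feedback genes from ETV4 (5.63) to SPRED3 (2.52) lie over 0.

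Most HOX genes rose against P10, and not those of thoracic level alone. Of 29 HOX genes tested, 19 rose (65.5%, beside 38.5% of all genes) and 4 fell (13.8%, beside 36.7%). Their median log2 fold change was 1.22. HOXB9, a thoracic gene, had 485, 464 and 473 CPM in hMN-D6, against 136, 129 and 139 CPM in hSCNPC-P10. HOXA9 had 111, 105 and 103 CPM in hMN-D6, against 22, 20.2 and 22.9 CPM in hSCNPC-P10, and HOXC9, which sets the thoracic columns of motor neurons, had 56.5, 51.9 and 50.5 CPM in hMN-D6, against 20.2, 20.6 and 20.03 CPM in hSCNPC-P10. HOXB8 (1.00), HOXC6 (1.5), HOXC8 (1.45), HOXA5 (3.35), HOXD3 (2.23) and HOXD4 (1.53) rose too. HOXD8 (-0.33) and HOXD9 (0.56) were not called, though HOXD8 passed the test as lower without the first library of hMN-D6 (-0.46) or of hSCNPC-P10 (-0.43). The lumbar gene HOXC10 was 3.06 ± 0.369 CPM in hMN-D6 and 1.75 ± 0.327 in hSCNPC-P10 (SD, n = 3 each), and HOXD10 had 7 counts in hMN-D6 and 0 in hSCNPC-P10.

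The 4 that fell lie at the rostral end of their clusters. HOXB1, a hindbrain gene and the first of its cluster, had 2.01, 1.96 and 1.6 CPM in hMN-D6, against 49.2, 46.1 and 46.8 CPM in hSCNPC-P10. HOXA2, HOXB4 and HOXB2 fell by 1.20, 1.01 and 0.34 on the log2 scale. The direction of the caudal genes is tied to the passage of the progenitors. Against hSCNPC-P5, 10 HOX genes were higher and 11 lower, and HOXB9 (-0.73), HOXC6 (-1.02), HOXC8 (-0.82) and HOXC10 (-1.13) were lower in hMN-D6. Against hSCNPC-P20, 18 were higher and 7 lower, and the fall of HOXB1 was no longer called (log2 fold change -0.41, edgeR adjusted p with Benjamini-Hochberg of 0.201).

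**Figure D4:**
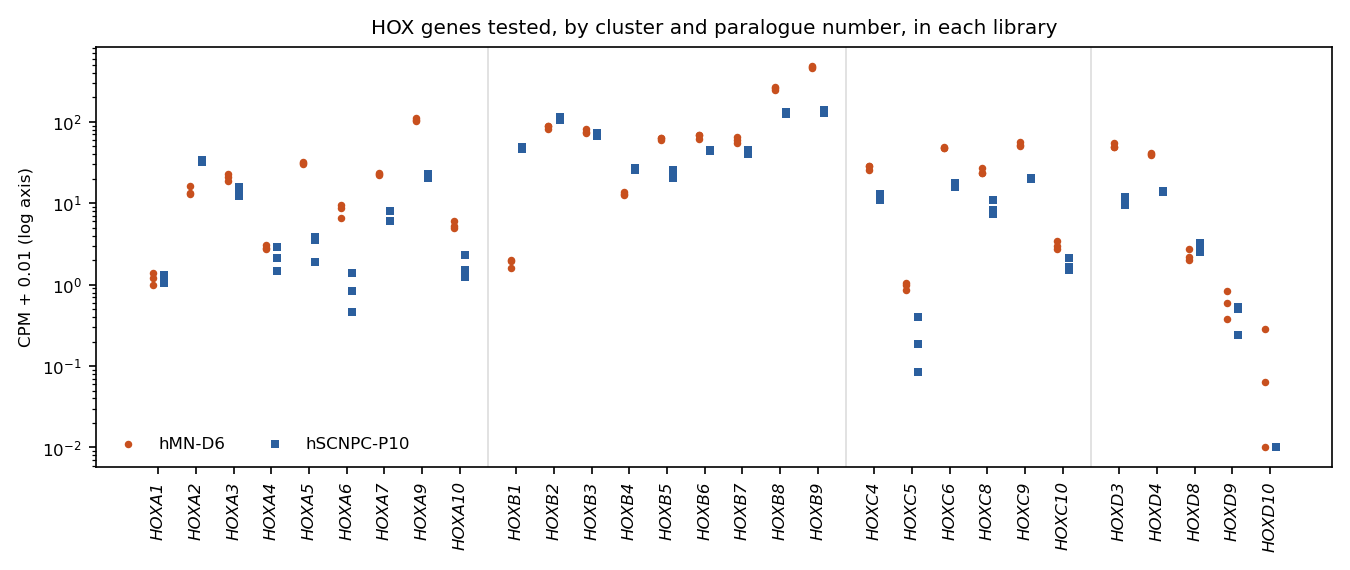
CPM of the 29 HOX genes tested in each of the 6 libraries on a log axis (with the same small constant), ordered by cluster and paralogue number, hMN-D6 as circles to the left and hSCNPC-P10 as squares to the right of each gene. HOXA9, HOXB9 and HOXC9 lie higher in hMN-D6, and HOXB1 shows the largest fall of the 4 HOX genes that fell.

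Neuronal structure and synapse genes rose nearly as whole lists. Of 29 genes of the cytoskeleton and growth cone, 27 rose (93.1%, beside 38.5% of all genes) and 0 fell, with a median log2 fold change of 1.48 (edgeR's test called none lower under any alternative). NEFL, the light neurofilament, had 2579.5, 2517 and 2598 CPM in hMN-D6, against 408, 399 and 407 CPM in hSCNPC-P10. MAP2, of dendrites, rose by 2.64, the filament gene INA by 2.44 and STMN2, which keeps axonal microtubules dynamic, by 2.39 on the log2 scale. Since STMN2, DCX and NEFL already stood at over 350 CPM in hSCNPC-P10, the progenitor libraries held neuronal transcripts too.

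Of 27 synaptic vesicle genes, 25 rose (92.6%, beside 38.5% of all genes), at a median of 2.09. SYT4, a synaptotagmin of dense-core vesicles, had 887, 861 and 842 CPM in hMN-D6, against 55.3, 61.8 and 53.5 CPM in hSCNPC-P10. UNC13A, which primes vesicles for release, had 203, 239 and 244 CPM in hMN-D6, against 18.7, 20.6 and 20.03 CPM in hSCNPC-P10. The vesicle proteins SYP and SYN1 rose by 2.62 and 2.30 on the log2 scale and SNAP25 by 2.16. On the postsynaptic side 19 of 22 genes rose (86.4%, beside 38.5% of all genes), at a median of 1.65. Among them was DLG4 (PSD-95), with 292, 289.5 and 288 CPM in hMN-D6, against 106, 92.6 and 102 CPM in hSCNPC-P10. Of 25 receptor and chloride transporter genes for glutamate, GABA and glycine, 19 rose (76.0%, beside 38.5% of all genes) and 1 fell (4.0%, beside 36.7%). Voltage-gated channels followed, with 16 of 18 calcium, 10 of 13 sodium and 19 of 28 potassium channel genes higher (88.9%, 76.9% and 67.9%, beside 38.5% of all genes). CACNA1A, the pore of P/Q-type calcium channels, rose by 4.86 and SCN2A, a sodium channel of immature axons, by 3.35 on the log2 scale.

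Genes of other transmitters were present alongside the cholinergic ones. Of 21 tested, 12 rose (57.1%, beside 38.5% of all genes) and 3 fell (14.3%, beside 36.7%). GAD1, which makes GABA, was 27 ± 2.76 CPM in hMN-D6 and 6.87 ± 0.279 in hSCNPC-P10, and SLC6A5, the glycine transporter of inhibitory terminals, was 13 ± 1.21 and 1.8 ± 0.289 (SD, n = 3 each). The vesicular GABA and glycine transporter SLC32A1 was 0.27 ± 0.17 CPM in hMN-D6 and 1.58 ± 0.109 in hSCNPC-P10, and GAD2 fell by 1.19 on the log2 scale, so the inhibitory genes did not rise together. SLC32A1 turned its sign against hSCNPC-P20 (2.62), and SLC6A5 was level with hSCNPC-P5 (-0.06). Of the genes of monoamine synthesis and storage, TH, DDC, DBH and SLC18A1 rose, whereas the vesicular transporter SLC18A2 (-0.08) and the serotonin enzymes TPH1 (-0.34) and TPH2 (-0.83) were not called. DBH, which makes noradrenaline, had 50.3, 50.04 and 48.6 CPM in hMN-D6, against 11.3, 11.5 and 11 CPM in hSCNPC-P10. SLC18A1, a vesicular monoamine transporter, was 46.4 ± 3.12 CPM in hMN-D6 and 3.53 ± 0.288 in hSCNPC-P10, DDC was 17.9 ± 0.769 and 0.881 ± 0.156, and TH, the first enzyme of dopamine synthesis, was 3.1 ± 0.383 and 0.122 ± 0.026. The rise of TH was lost against hSCNPC-P20 (log2 fold change 0.24, edgeR adjusted p with Benjamini-Hochberg of 0.193). The vesicular glutamate transporter SLC17A6 had 35 counts in hMN-D6 and 0 in hSCNPC-P10, at least 10.4-fold higher at the same floor. The neuropeptide genes SST (4.04) and TAC1 (3.37) rose, and NPY fell by 3.88 on the log2 scale at under 2 CPM.

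Some of the regulators that switch progenitors to the neuronal splicing and chromatin programme changed too. PTBP1, which blocks neuronal exons in other cells, had 131, 136 and 129.8 CPM in hMN-D6, against 889, 799 and 868 CPM in hSCNPC-P10, while its neuronal relative PTBP2 rose by 0.54 on the log2 scale. RBFOX3 (NeuN) had 48.6, 48.6 and 48.8 CPM in hMN-D6, against 7.31, 7.5 and 9.08 CPM in hSCNPC-P10, and CELF4 rose by 2.96. Of 25 splicing regulators, 16 rose (64.0%, beside 38.5% of all genes) and 7 fell (28.0%, beside 36.7%). REST, which represses neuronal genes outside neurons, was 5.77 ± 0.663 CPM in hMN-D6 and 49.3 ± 3.8 in hSCNPC-P10. In the BAF chromatin remodelling complex, the neuronal subunit ACTL6B was 107 ± 8.16 CPM in hMN-D6 and 11.1 ± 0.618 in hSCNPC-P10, and its progenitor counterpart ACTL6A was 39.6 ± 1.19 and 87.1 ± 2.86 (SD, n = 3 each).

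SLIT2 and SLIT3, secreted guidance molecules that repel axons, are also the hosts of the 2 genes of miR-218, a microRNA that is abundant in motor neurons and represses genes of other neurons in mouse. SLIT2 had 309, 339 and 338 CPM in hMN-D6, against 47.4, 50.6 and 49.1 CPM in hSCNPC-P10, and SLIT3 had 113, 123 and 123 CPM in hMN-D6, against 47.1, 44.9 and 46.7 CPM in hSCNPC-P10. The mature miR-218-5p made from MIR218-1 (chr4:20528299-20528319, plus strand) and MIR218-2 (chr5:168768211-168768231, minus strand) is the same in RefSeq on GRCh38.p14, and is shown with its seed, bases 2 to 8, in capitals.
hsa-miR-218-5p: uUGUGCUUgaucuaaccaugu
The counts cover the host genes and not the microRNA itself. Of 42 axon guidance genes, 27 rose (64.3%, beside 38.5% of all genes) and 12 fell (28.6%, beside 36.7%).

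The genes of the ribosome fell nearly as a whole list. Of 43 cytosolic ribosomal protein genes tested, 42 fell (97.7%, beside 36.7% of all genes) and 0 rose, with a median log2 fold change of -1.85, and 42 or 43 were lower under each alternative. The list took 1.99% to 2.30% of the counts in hMN-D6 and 6.66% to 6.80% in hSCNPC-P10. RPLP0, of the ribosomal stalk, had 804, 707 and 676 CPM in hMN-D6, against 4399, 4182 and 4209.8 CPM in hSCNPC-P10. RPS2 and RPL3 fell by 2.44 and 1.83 on the log2 scale, and the elongation factors EEF1A1 and EEF2 by 1.37 and 0.96. The mitochondrially encoded genes moved with them, 10 of 13 lower (76.9%, beside 36.7% of all genes) but by less, with a median of -0.53, and only 6 of the 13 were lower without TMM factors.

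Most genes of the unfolded protein and integrated stress responses were lower in hMN-D6. Of 20 unfolded protein and integrated stress response genes, 15 fell and 3 rose (median -1.49). PHGDH, the first enzyme of serine synthesis, had 59.4, 57.4 and 55.3 CPM in hMN-D6, against 424, 411 and 434 CPM in hSCNPC-P10. PSAT1, the next enzyme, fell by 3.00 on the log2 scale, and ATF4, the transcription factor of the response, by 1.61. ASNS, which makes asparagine, was not called (log2 fold change -0.18). Of 23 p53 target and apoptosis genes, 17 fell (73.9%, beside 36.7% of all genes) and 5 rose (21.7%, beside 38.5%), with PMAIP1 (NOXA) lower by 4.04 and BAX by 1.67. Glycolysis showed an exchange of isoforms: ENO1 was 507 ± 14.5 CPM in hMN-D6 and 1747 ± 41.6 in hSCNPC-P10, and the neuronal enolase ENO2 was 429 ± 9.9 and 129 ± 5.79 (SD, n = 3 each). The glucose transporter SLC2A1 had 108, 109 and 119.9 CPM in hMN-D6, against 1203, 1125 and 1223 CPM in hSCNPC-P10. Over the 23 glycolysis genes, 13 fell (56.5%, beside 36.7% of all genes) and 9 rose (39.1%, beside 38.5%). Cholesterol synthesis moved little, with 14 of 22 genes higher (63.6%) and 7 lower (31.8%) at a median of 0.30. Against hSCNPC-P20, 8 were higher and 13 lower.

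**Figure D5:**
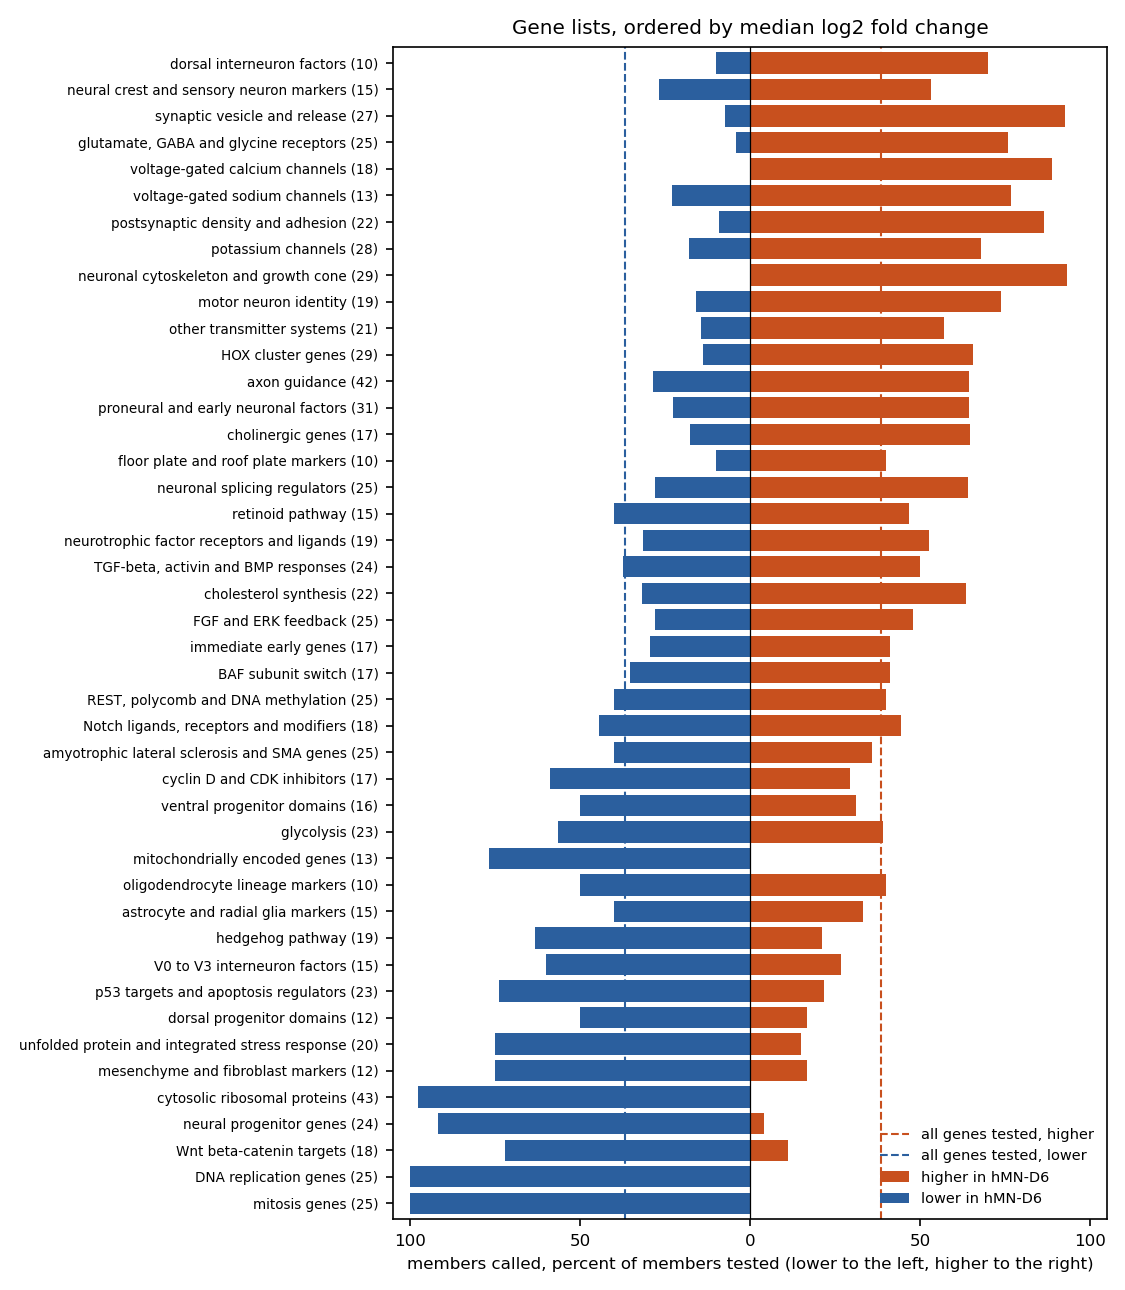
Members called higher (to the right) or lower (to the left) in hMN-D6, as a percent of the members tested, for 44 gene lists ordered by their median log2 fold change, with the number tested in brackets. Dashed lines mark the shares over all genes tested, 38.5% higher and 36.7% lower, and the lists of mitosis, DNA replication and ribosomal protein genes show the fullest falls.

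Markers of other cell types were mostly low. The summed level of the neural crest and sensory neuron list was 30.4 to 35.3 CPM (of the library total) in hMN-D6 and 227 to 246 CPM in hSCNPC-P10. By number, 8 of its 15 genes rose (53.3%, beside 38.5% of all genes) and 4 fell (26.7%, beside 36.7%). SOX10, of neural crest and oligodendrocyte cells, was 2.48 ± 1.02 CPM in hMN-D6 and 0.316 ± 0.0308 in hSCNPC-P10, and lower in hMN-D6 than in hSCNPC-P5 (-1.10). Mesenchyme markers summed to 113 to 127 CPM in hMN-D6 and 188 to 225 in hSCNPC-P10, with LUM lower by 4.03. Muscle markers summed to 9.33 to 10.4 in hMN-D6 and 9.44 to 10.8 in hSCNPC-P10, endothelial and microglial markers to 6.24 to 8.01 and 2.90 to 3.57, and pluripotency markers to 13.5 to 15.1 and 35.9 to 39.8. Of the astrocyte list, 5 of 15 genes rose and 6 fell, at sums of 238 to 254 in hMN-D6 and 260 to 267 in hSCNPC-P10. Within the list, the glutamate transporter SLC1A2 rose to 199 ± 6.71 CPM in hMN-D6, against 54.9 ± 2.46 in hSCNPC-P10 (SD, n = 3 each), while the gap junction gene GJA1 fell to 10.4 ± 0.885 CPM in hMN-D6, against 87.8 ± 2.65 in hSCNPC-P10, and the glutamate transporter SLC1A3 to 2.66 ± 0.164 CPM in hMN-D6, against 81.2 ± 1.33 in hSCNPC-P10. The part of these cells in the results was not tested.

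Classes of gene differed in their balance. Of 4034 lncRNA genes tested, 45.7% were higher and 14.3% lower in hMN-D6, with a median log2 fold change of 0.62, and they took 1.88% to 1.94% of the counts in hMN-D6 and 1.36% to 1.39% in hSCNPC-P10. Of 14781 protein-coding genes, 37.1% were higher and 44.7% lower. Among protein-coding genes that span over 200 kb, 52.3% were higher and 34.2% lower, against 33.7% and 45.2% of those under 10 kb. These classes differ in expression level as well, with a median of 0.98 CPM in hMN-D6 for lncRNA and 22.1 CPM for protein-coding genes. The filter on low counts was run over 18 hMN and 3 hSCNPC-P10 libraries, so a low gene had more hMN libraries through which to pass. With the 6 libraries alone, 18328 genes were tested, and the median log2 fold change of all genes was 0.033 instead of 0.079. How far the filter tilts the shares of lncRNA, whose levels are low, was not tested.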

How the data were processed

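RNA-seq of H9-derived cells was taken as raw read counts per gene, which the authors deposited without normalization after trimming paired-end reads with fastp, aligning them to hg38 with HISAT2 2.1.0 and counting with featureCounts 1.5.3 on a GENCODE annotation (release and strand setting not given in the sources used here). Of 60603 identifiers, 99.44% have a symbol in GENCODE v44. The 18 hMN and 3 hSCNPC-P10 libraries were fitted together in edgeR 4.0.16 (filterByExpr, TMM, robust quasi-likelihood F test, 1 coefficient per group, Benjamini-Hochberg adjustment over 21163 genes, threshold 0.05), tested on simulated data. The SE is the log2 fold change over the square root of F. TPM used GENCODE v44 exon lengths. Genes were named by fixed rules (genes of the study, list members, 15 largest folds and 10 largest CPM differences per direction). Members and lists were chosen with earlier results of these data known. Lists are described by counts and medians, with no test, and a few of their members are not reported here. Alternatives were RLE, upper quartile and no scaling, 2 other filters, DESeq2 1.42.0, a 2-fold null (glmTreat), the 6 libraries alone, a replicate block, passages 5 and 20, and each library left out. Counting precision follows from the counts given. Intervals cover counting error only. R 4.3.3 and Python 3.11.15 were used.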

Additional observations from a re-analysis of the deposited data

How the results depend on the processing

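The counts of called genes stayed within 1.5 times the reported ones in each alternative except edgeR's test against a 2-fold change, which called 3255 genes higher and 2817 lower. Leaving out 1 library gave 7837 to 8092 genes higher and 7523 to 7749 lower. The replicate numbers do not pair the libraries: same-numbered libraries of hMN-D6 and hSCNPC-P10 deviated with correlations of 0.042, -0.083 and 0.065 over 10500 genes, and the fit with the replicate block on the 6 libraries alone called 7383 higher and 7220 lower, against 7419 and 7221 without the block. Of 224 named genes, 179 kept their direction and call in all 17 alternatives and 193 in all but the 2-fold test. The sign turned mostly with the passage, and the cause was not tested. With hSCNPC-P20 it turned for GATA2 (0.71), GATA3 (4.37), EVX1 (5.50), LMX1B (-0.66), DBX1 (4.05), NEUROG1 (0.96), NEUROG2 (2.65), NEUROD1 (2.52), HHIP (0.12), GAD2 (0.72), SLC32A1 (2.62), CDON (-1.20), ASNS (0.78) and SLC18A2 (0.87). With hSCNPC-P5 it turned for PAX2 (-0.86), DBX1 (0.18), NKX2-2 (3.59), NEUROD1 (0.64), HOXB9 (-0.73), HOXC6 (-1.02), HOXC8 (-0.82), HOXC10 (-1.13), SLC6A5 (-0.06), SOX10 (-1.10), CDON (-0.22), ASNS (0.32) and ETV1 (0.17). Among genes not called, NEUROD1 was at 0.00, ASNS at 0.04 and SLC18A2 at 0.14 without TMM factors, ASNS at 0.03 and SLC18A2 at 0.13 with upper quartile scaling, and SLC18A2 between -0.28 and 0.06 with 1 library left out. The smallest changes and genes under about 1 CPM are those limited by depth.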

Other observations

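Replicates agreed closely, but 32 genes with at least 5 CPM in a library spanned 4-fold or more among the 3 libraries of a group. In 26 of these (81.2%), at least 50% of the words of 31 bases in the longest transcript also lie on an alternate contig of hg38, which holds for 1.86% of all genes tested. HES5 and the spinal muscular atrophy gene SMN1 are among them. SMN1 also has the near-identical copy SMN2, and the level of both is not read here. Other genes of interest with such a second copy are DLL1 (92.6% of words), LHX1 (95.8%), MAPT (93.9%) and POU5F1 (87.8%). Whether the authors' alignment index held the alternate contigs is not given in the sources used here, and this was not tested. In an alternative chosen after seeing the data, which left out the genes on alternate contigs, 8051 genes were higher and 7676 lower.

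Set beside the later hMN groups of the same fit, the levels at day 6 differ between factors. ISL1 averaged 6.68, 10.4, 10.9, 15.7, 20.2 and 25.1 CPM at days 6, 12, 18, 24, 30 and 42. MNX1 stayed between 2.94 and 5.57 CPM over the same days. LHX3 was 12.3 CPM at day 6 and 0.655 CPM at day 42, and PHOX2A was 6.93 CPM at day 6 and 0.048 CPM at day 42. DBX1 was 428 CPM at day 6 and 104 CPM at day 12. These are means of 3 libraries, given with no test.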
